A study of Mus musculus with 6 samples.

Results

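The genes described here are 39 immediate early genes, transcripts that rise in neurons soon after activity, measured by RNA-seq in the suprachiasmatic nucleus (SCN). They were chosen by name, as the gene symbols on a list of activity-induced transcription factors and effectors, and all 39 of the 39 symbols were among the 17645 genes listed in at least 1 library. Of these, 38 had enough reads to be tested, among 14438 genes tested in all. The SCN is the small hypothalamic nucleus that holds the central circadian clock, and most of its neurons are GABAergic.

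Immediate early genes are transcribed within minutes of a stimulus without new protein synthesis, because the factors that switch them on (CREB, SRF and its partners, and MEF2) are already bound or waiting in the cell and are activated by calcium, cAMP and kinase signalling. Their products include transcription factors that act on later genes, and effectors that act at synapses or that damp kinase signalling. In the SCN they are best known for their induction by light at night, which reaches the nucleus through the retinohypothalamic tract and acts largely through CREB, and several of them also cycle through the day in step with neuronal firing.

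Both groups were female C57BL/6 mice killed in darkness at zeitgeber time (ZT, hours since lights on) 12 to 14. SCN tissue was taken from frozen brain sections with a needle, and every library was made from RNA pooled from 2 SCN. The 3 libraries labelled r1r2V (replicates 1, 4 and 5) were taken to lack Nr1d1 and Nr1d2 in GABAergic neurons. These genes encode the clock repressors REV-ERBα and REV-ERBβ. The 3 libraries labelled V (replicates 2, 3 and 4) were taken as their control. What V stands for, the Cre driver, the alleles the controls carry, the age of the mice and whether pools came from different animals are not stated in the labels. All p-values therefore measure the spread between these 6 libraries, which may be technical. Since the tissue is a mixture of cells, fewer cells of a type and less RNA per cell cannot be told apart.

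Total expected counts (estimated read numbers) ran from 15729603 to 17780928 per library. Nr1d1 had 56.7, 62.5 and 57.0 CPM (read counts scaled to library size) in V and 196, 157 and 147 CPM in r1r2V, so it was higher and not lower in the libraries labelled r1r2V (adjusted p = 8.24e-05). Nr1d2 had 177, 179 and 168 CPM in V against 229, 275 and 222 CPM in r1r2V (adjusted p = 0.0553). Nr1d1 overlaps Thra on the opposite strand, gene totals include reads from exons outside a deletion, and neither checks it, so every direction below is that of the library labels. Of the genes averaging 1 CPM or more, 72.5% had a larger within-group SD of log2 CPM in r1r2V than in V. Among the immediate early genes it was larger in r1r2V for 22 of 37, with a median SD of 0.13 in V and 0.16 in r1r2V.

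The DNA in front of these genes holds motifs that activity-dependent factors are known to bind, and it is shown to set those motifs beside the values. RefSeq promoters (build GRCm38.p6) were at hand for 28 of the 39 genes, with 41 annotated starts. The 250 bases before the start are printed 5′ to 3′ on the gene's strand for 5 genes: the 3 with the largest log2 fold change among those whose groups did not overlap (Fosb, Egr4 and Gadd45b), Fos, whose group means nearly matched, and Nr4a1, which was lower on average. Capitals mark the core of the cAMP response element bound by CREB (TGACG), the binding site of EGR proteins (GCGNGGGCG) and the E-box of the clock activators (CACGTG), on either strand. Fosb on the minus strand (chr7:19310046-19310295, with another annotated start of the gene lying upstream), Egr4 on the minus strand (chr6:85513590-85513839), Gadd45b on the plus strand (chr10:80929841-80930090), Fos on the plus strand (chr12:85473640-85473889) and Nr4a1 on the plus strand (chr15:101266596-101266845, a start inside the gene's annotated span) read as follows.
Fosb: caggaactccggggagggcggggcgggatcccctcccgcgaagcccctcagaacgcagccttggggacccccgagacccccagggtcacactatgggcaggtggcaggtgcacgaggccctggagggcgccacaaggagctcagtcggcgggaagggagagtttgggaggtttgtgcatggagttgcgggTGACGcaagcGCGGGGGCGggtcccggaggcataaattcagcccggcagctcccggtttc
Egr4: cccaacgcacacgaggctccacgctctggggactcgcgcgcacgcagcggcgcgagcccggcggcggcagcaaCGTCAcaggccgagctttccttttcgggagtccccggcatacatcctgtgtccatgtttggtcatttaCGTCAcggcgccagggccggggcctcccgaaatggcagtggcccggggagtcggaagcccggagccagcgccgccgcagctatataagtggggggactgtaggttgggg
Gadd45b: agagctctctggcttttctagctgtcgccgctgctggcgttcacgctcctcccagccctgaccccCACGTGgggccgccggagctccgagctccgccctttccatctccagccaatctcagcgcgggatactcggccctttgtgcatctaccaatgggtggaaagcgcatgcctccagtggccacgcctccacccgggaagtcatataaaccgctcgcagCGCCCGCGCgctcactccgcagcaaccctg
Fos: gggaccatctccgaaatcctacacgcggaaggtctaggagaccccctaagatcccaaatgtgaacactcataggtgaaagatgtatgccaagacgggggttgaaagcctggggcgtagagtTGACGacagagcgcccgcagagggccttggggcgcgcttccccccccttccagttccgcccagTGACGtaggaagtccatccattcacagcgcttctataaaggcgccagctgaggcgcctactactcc
Nr4a1: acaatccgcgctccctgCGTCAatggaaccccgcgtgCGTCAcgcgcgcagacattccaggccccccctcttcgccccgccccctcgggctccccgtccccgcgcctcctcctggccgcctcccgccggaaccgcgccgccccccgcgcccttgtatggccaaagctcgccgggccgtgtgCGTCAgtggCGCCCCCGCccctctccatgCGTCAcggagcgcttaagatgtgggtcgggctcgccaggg

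In Fosb the CRE core lay at positions -60 to -56, counted back from the start, with an EGR site just downstream at -50 to -42. Egr4 and Fos each held a pair of CRE cores, at -177 to -173 and -109 to -105 in Egr4 and at -129 to -125 and -66 to -62 in Fos. Nr4a1 held 4 of them, the first base of each at -233, -213, -69 and -40, and an EGR site at -60 to -52. Gadd45b held no CRE core in this window, but an E-box at -185 to -180 and an EGR site at -30 to -22.

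Over all 41 promoters, 22 (53.7%) held the CRE core, against 17.8% of all 32851 annotated promoters of the same length. The full palindrome TGACGTCA, which contains that core on both strands, was in 3 (7.32%, against 1.55%), those of Btg2, Dusp1 and Maff. EGR sites were in 9 (22.0%, against 4.70%) and the CArG box, the SRF site, in 5 (12.2%, against 1.47%) that belong to only Egr2 and Dusp5. E-boxes were in 6 (14.6%, against 6.02%). The AP-1 site TGANTCA was in 1 (2.44%, against 6.75%) and the nuclear receptor half-site AGGTCA, which is part of the element that REV-ERB proteins bind, in 3 (7.32%, against 14.0%). These matches describe letters on both strands and are not evidence of binding, and several starts belong to the same gene.

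In the comparison of r1r2V with V, none of the 38 tested immediate early genes passed the threshold of an adjusted p of 0.05 in edgeR's quasi-likelihood test, in either direction. Of all genes tested, 0.298% passed as higher in r1r2V and 0.118% as lower. With DESeq2, 4 of the 38 passed as higher (Fosb, Egr1, Fosl2 and Egr4) and 0 as lower. Among all 14438 genes, DESeq2 called 69 higher and 40 lower. At an unadjusted threshold of 0.05 in the edgeR test, 13 were higher and 3 lower, against 3.95% and 3.63% of all genes. In 12 genes (31.6%) all r1r2V libraries lay above all V libraries, against 6.87% of all genes, and in 4 all lay below, against 7.63%. The log2 fold change (r1r2V minus V) was above 0 for 27 of 38 (71.1%), against 52.5% of all genes. Its median was 0.18, against 0.01 over all genes, and it ran from -0.30 for Gadd45g to 0.91 for Fosb and Egr4. The values are totals over all exons of a gene, which in GRCm38 spans chr7:19302696-19310118 for Fosb, chr6:85511121-85513589 for Egr4, chr15:38291464-38300711 for Klf10, chr10:80930091-80932204 for Gadd45b, chr12:85473890-85477274 for Fos and chr15:101253902-101274795 for Nr4a1.

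**Figure D1:**
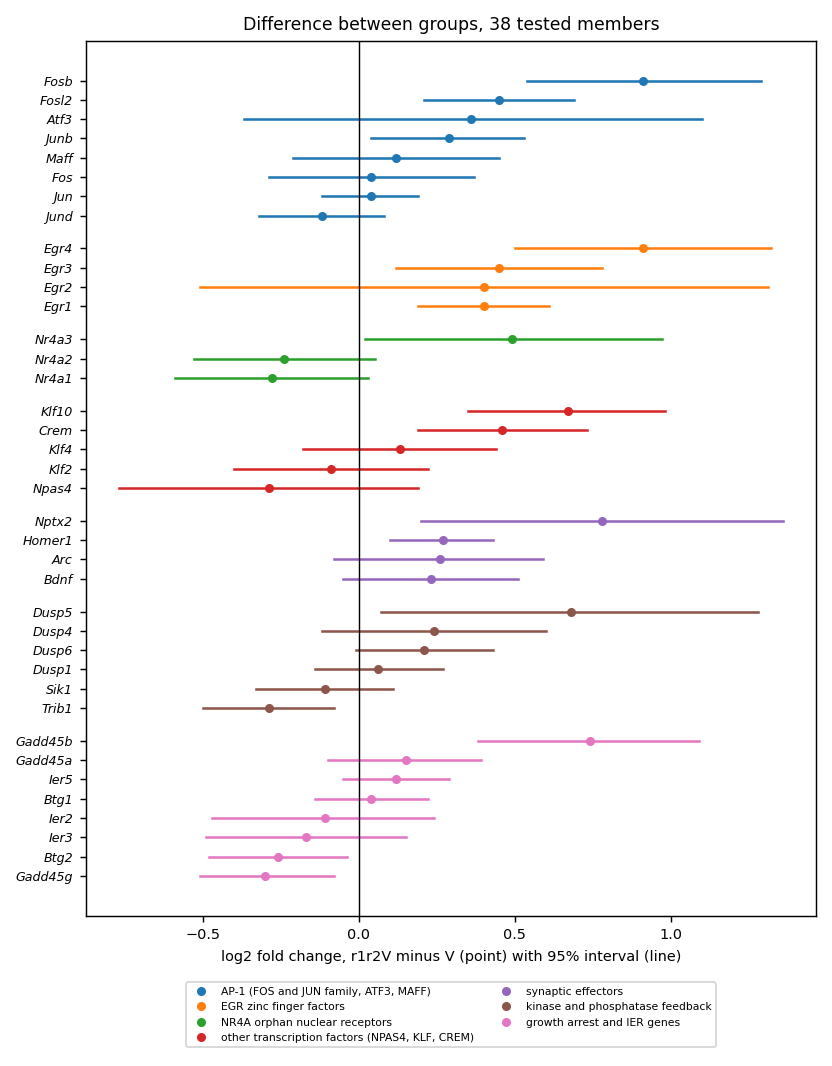
Log2 fold change (r1r2V minus V, horizontal axis) of each of the 38 tested genes with its 95% interval from edgeR's quasi-likelihood test, 1 row per gene, coloured by role and in order of the estimate within each role. The estimates run from -0.30 to 0.91, 27 lie above 0, and no gene passed an adjusted p of 0.05.

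The AP-1 genes encode FOS and JUN proteins and their relatives, which pair to bind the AP-1 site. Fosb, whose protein and its stable truncated form build up under repeated stimulation, had 11.6, 8.96 and 7.74 CPM in V against 17.2, 21.2 and 14.9 CPM in r1r2V. All 3 r1r2V values lay above all V values. The means were 9.42 ± 1.96 and 17.8 ± 3.17 CPM (SD, n = 3 each), which is 0.91 on the log2 scale (standard error 0.169), and the adjusted p of 0.0668 was the lowest among the members. That p was under 0.05 with DESeq2 (0.000126), with no filter on low counts (0.0292) and without r1r2V replicate 5 (0.036), and was 0.307 without V replicate 4.

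Fos itself, the gene used most widely as a mark of neuronal activation, gave groups that could not be separated. Its values were 37.6, 30.0 and 31.7 CPM in V against 30.3, 43.0 and 28.9 CPM in r1r2V, 1 r1r2V library lying above the V range and 1 below. The log2 fold change was 0.04 with a 95% interval of -0.29 to 0.37 and an adjusted p of 0.955. The high r1r2V value came from replicate 4, and without that library the log2 fold change was -0.16. Whether the fold changes of Fosb and Fos differ was not tested.

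Fosl2, which encodes FRA-2, a FOS relative that is made later and lasts longer, had 39.6, 33.0 and 34.3 CPM in V against 46.4, 55.8 and 43.5 CPM in r1r2V, and the groups did not overlap. Its log2 fold change was 0.45 (standard error 0.107, adjusted p = 0.213 with edgeR and 0.023 with DESeq2). Junb, a JUN protein that restrains c-JUN at many sites, had 25.5, 23.2 and 22.6 CPM in V against 31.0, 31.6 and 24.2 CPM in r1r2V. Replicate 5 of r1r2V lay inside the V range there. The difference was 0.29 (adjusted p = 0.579).

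The remaining AP-1 genes overlapped between the groups. Jun had 51.7 ± 2.43 CPM in V against 53.0 ± 2.36 CPM in r1r2V (SD, n = 3 each), with a log2 fold change of 0.04 and a 95% interval of -0.12 to 0.19. Jund, a JUN gene that is expressed at rest in most cells, had 187 ± 2.48 CPM in V against 172 ± 22.9 CPM in r1r2V (SD, n = 3 each), and 146 CPM in r1r2V replicate 4 made the wider spread. Atf3, a stress-responsive repressor, had 1.75, 2.59 and 1.71 CPM in V against 1.91, 4.02 and 1.87 CPM in r1r2V, so that a single library stood apart. Its log2 fold change was 0.36 in all and -0.10 without that library, r1r2V replicate 4. Maff, a small MAF protein, had a log2 fold change of 0.12. Fosl1, which encodes FRA-1, was listed in 4 of the 6 libraries with expected counts of 1.06, 0 and 1.08 in V and 8.39, 0 and 3.29 in r1r2V, too few to test. It overlaps Ccdc85b by 2776 bases in the annotation, and reads of the overlapping genes may not be separable. In r1r2V replicate 4, 7 of the 8 tested AP-1 genes had their highest value of the 6 libraries, against 25.5% of all genes.

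**Figure D2:**
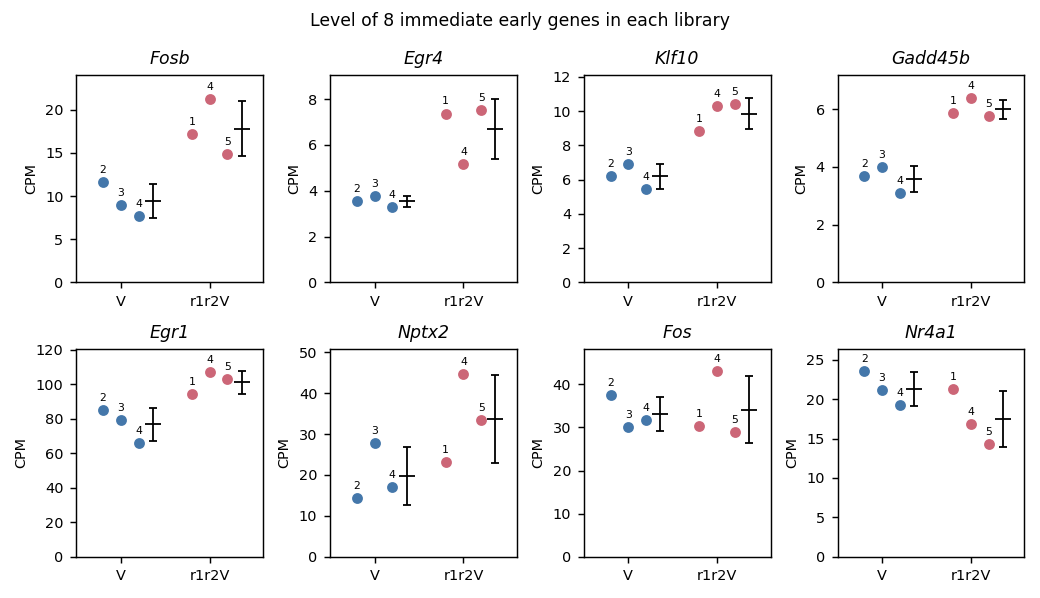
Level in CPM (vertical axis from 0, a separate scale in each panel) of 8 immediate early genes, with 1 point per library marked by its replicate number, V and r1r2V side by side, and the mean with its SD in black. All r1r2V points lie above all V points for Fosb, Egr4, Klf10, Gadd45b and Egr1, and the groups overlap for Nptx2, Fos and Nr4a1.

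The EGR genes encode zinc finger factors that bind GC-rich sites and are induced through SRF and CREB. All 4 had a positive log2 fold change, against 52.5% of all genes, with a median of 0.43. In 3 of the 4 all r1r2V libraries lay above all V libraries, against 6.87% of all genes. Egr4 had 3.55, 3.77 and 3.30 CPM in V against 7.37, 5.17 and 7.52 CPM in r1r2V. All r1r2V values were above all V values, with a log2 fold change of 0.91 (standard error 0.184) and an adjusted p of 0.108, which was 0.0242 with DESeq2 and 0.0261 without r1r2V replicate 4.

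Egr1, the most abundant of the family per length, had 84.8, 79.4 and 66.1 CPM in V against 94.4, 107 and 103 CPM in r1r2V. Again the groups did not overlap, by 0.40 on the log2 scale (adjusted p = 0.213 with edgeR and 0.0108 with DESeq2). Egr3, a relative that shares EGR1's binding site, had 6.38, 6.37 and 4.89 CPM in V against 8.24, 7.53 and 8.39 CPM in r1r2V, a difference of 0.45 (adjusted p = 0.495) without overlap. Egr3 lies on chromosome 14 (70077317 to 70082613, GRCm38), as Nr1d2 does. Egr2, better known for its role in Schwann cells and hindbrain patterning, was near 1 CPM in several libraries (1.69, 1.46 and 0.698 in V, 1.74, 2.53 and 0.874 in r1r2V) and overlapped, with an interval of -0.51 to 1.31 around 0.40. All 4 EGR genes had their lowest value in V replicate 4, as 2367 of all 14438 genes tested did. Its median over the family was -0.23 relative to the V mean on the log2 scale.

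The NR4A genes encode orphan nuclear receptors that are induced by cAMP and calcium and act without a known ligand. Nr4a1 had 23.5, 21.1 and 19.2 CPM in V against 21.3, 16.9 and 14.3 CPM in r1r2V. Replicate 1 of r1r2V lay inside the V range, and the difference of -0.28 had an interval of -0.59 to 0.03 (adjusted p = 0.665). Nr4a2, needed for dopamine neurons to form, had 7.79, 8.84 and 9.39 CPM in V against 7.72, 6.89 and 7.40 CPM in r1r2V, with all r1r2V values below all V values by a small margin (-0.24, adjusted p = 0.683). Nr4a3 lay on the other side, at 28.3, 25.8 and 16.6 CPM in V against 29.4, 43.8 and 26.6 CPM in r1r2V. Its log2 fold change was 0.49 (interval 0.02 to 0.97, adjusted p = 0.640), and r1r2V replicate 5 lay within the V range. The family thus had 1 positive fold change of 3 and a median of -0.24, where the EGR family had 4 of 4 and all genes tested 52.5%. Whether the families differ was not tested.

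Of the other transcription factors, Klf10 and Crem stood above V in every r1r2V library. Klf10, a TGF-β-inducible Krüppel-like factor that is also an output of the circadian clock in liver, had 6.21, 6.93 and 5.46 CPM in V against 8.82, 10.3 and 10.4 CPM in r1r2V. Its log2 fold change was 0.67 (standard error 0.141) with an adjusted p of 0.134 and a lowest value over the alternatives of 0.0575. Crem, whose internal promoter gives the repressor ICER that shuts off CREB targets, had 18.6, 19.2 and 17.4 CPM in V against 22.1, 30.4 and 23.5 CPM in r1r2V (0.46, adjusted p = 0.296). The gene total adds ICER to the longer forms, so these values do not say which form differed.

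Npas4, a factor induced by calcium entry in neurons and by few other signals, had 9.14, 8.45 and 10.6 CPM in V against 10.6, 7.01 and 5.48 CPM in r1r2V. The r1r2V libraries spanned a wider range than V, and the difference of -0.29 had an interval of -0.77 to 0.19. Klf2 and Klf4, Krüppel-like factors of vessel and barrier cells among others, overlapped, at -0.09 and 0.13. Without r1r2V replicate 4, Klf2 stood at 0.04.

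Among the effectors, the 4 synaptic genes all had positive log2 fold changes (against 52.5% of all genes), with a median of 0.26. Only Homer1 separated fully, where 6.87% of all genes lay fully above V. Homer1, a scaffold of metabotropic glutamate receptors whose short form Homer1a is the activity-induced product, had 26.4, 27.2 and 28.0 CPM in V against 30.8, 33.8 and 33.5 CPM in r1r2V. The difference was modest, 0.27 with a standard error of 0.073 (adjusted p = 0.343), and long and short forms are summed in it. Nptx2, a secreted pentraxin that gathers AMPA receptors at synapses, had 14.3, 27.7 and 17.0 CPM in V against 23.1, 44.6 and 33.5 CPM in r1r2V. V replicate 3 overlapped with r1r2V replicate 1, and the log2 fold change of 0.78 had an interval of 0.20 to 1.36 (adjusted p = 0.514).

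Arc, which removes AMPA receptors from synapses, had 10.2, 12.1 and 13.5 CPM in V against 15.9, 11.5 and 15.3 CPM in r1r2V (0.26, adjusted p = 0.700). Bdnf, the neurotrophin whose promoters respond to CREB and NPAS4, had 20.4, 27.9 and 21.0 CPM in V against 24.1, 29.2 and 28.2 CPM in r1r2V (0.23, adjusted p = 0.683). In both, the groups overlapped by 1 or more libraries. All 4 synaptic genes had their lowest value in V replicate 2, as 1750 of all 14438 genes tested did. In r1r2V replicate 4, 3 of the 4 had their highest value, against 25.5% of all genes.

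The kinase and phosphatase genes encode brakes on signalling: DUSP proteins remove phosphate from MAP kinases, SIK1 holds back the CREB coactivators CRTC, and TRIB1 is a pseudokinase. Dusp5, specific for nuclear ERK, had 0.790, 0.620 and 0.761 CPM in V against 1.28, 1.15 and 1.05 CPM in r1r2V, without overlap (0.68, interval 0.07 to 1.28, adjusted p = 0.604). Dusp6, specific for cytoplasmic ERK, had 15.7, 14.4 and 14.9 CPM in V against 16.9, 19.1 and 16.0 CPM in r1r2V (0.21, adjusted p = 0.662), again without overlap. Trib1 lay on the other side, at 14.0, 14.8 and 14.8 CPM in V against 11.9, 11.5 and 12.3 CPM in r1r2V, and its groups did not overlap either (-0.29, adjusted p = 0.495). Dusp1, Dusp4 and Sik1 overlapped, at 0.06, 0.24 and -0.11. Sik1, which limits how far light shifts the SCN clock, had 29.3 ± 1.06 CPM in V against 27.2 ± 3.44 CPM in r1r2V (SD, n = 3 each).

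Of the growth arrest and IER genes, 4 of 8 had a positive log2 fold change (against 52.5% of all genes), with a median of -0.04. Gadd45b, which takes part in activity-induced DNA demethylation, had 3.67, 4.00 and 3.11 CPM in V against 5.86, 6.38 and 5.77 CPM in r1r2V. The groups were well apart (0.74, standard error 0.159, adjusted p = 0.148), and limma on log2(FPKM + 1) gave 0.59 with an adjusted p of 0.0482. Its relative Gadd45g was on the other side, at 24.9, 30.0 and 27.9 CPM in V against 22.8, 20.5 and 24.1 CPM in r1r2V (-0.30, standard error 0.0956, adjusted p = 0.481), with no overlap. Gadd45a overlapped, at 0.15. Btg2, an antiproliferative gene that also recruits mRNA deadenylases, had 18.8, 18.3 and 21.1 CPM in V against 17.6, 15.0 and 15.8 CPM in r1r2V (-0.26, adjusted p = 0.579), all below V. Ier5 had 22.3, 22.1 and 22.2 CPM in V against 24.0, 23.0 and 25.5 CPM in r1r2V, a separation by a small step of 0.12 (adjusted p = 0.717). Btg1, Ier2 and Ier3 overlapped, at 0.04, -0.11 and -0.17.

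**Figure D3:**
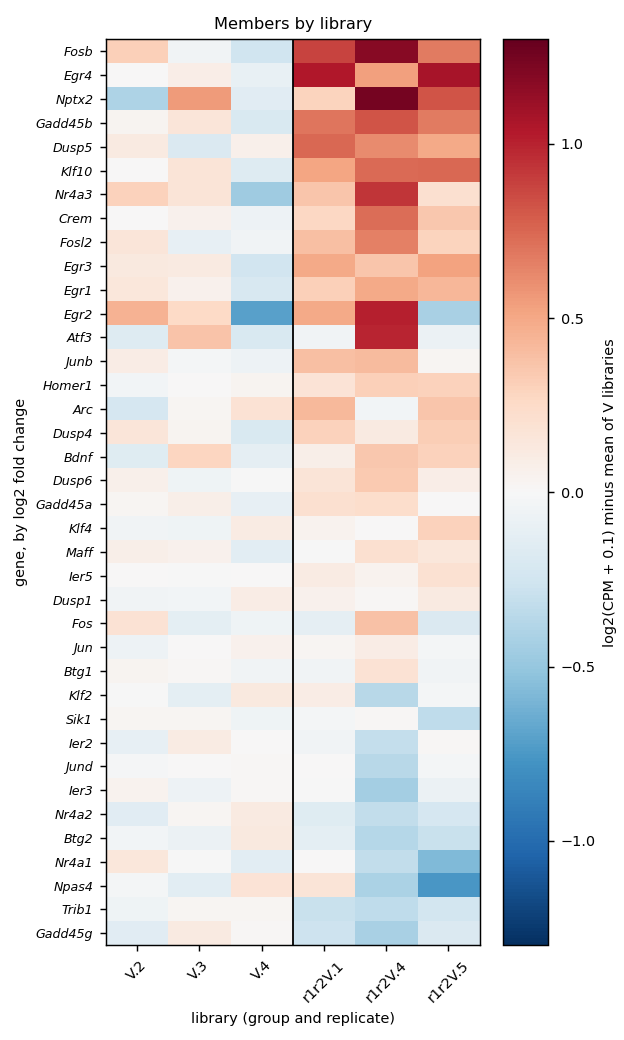
Level of each of the 38 tested genes in each library, as log2(CPM + 0.1) minus the mean of the V libraries (colour scale), with genes in rows ordered by log2 fold change and the 6 libraries in columns. Red in all 3 r1r2V columns marks genes such as Fosb and Egr4 at the top, and 18 of the 38 genes are highest in r1r2V replicate 4, against 25.5% of all genes.

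Divided by what the products do, the 20 tested transcription factor genes had a median log2 fold change of 0.32, with 15 positive, 7 fully above V and 1 fully below. The 18 effector genes had a median of 0.13, with 12 positive, 5 fully above and 3 fully below. Of all genes tested, 52.5% were positive, 6.87% lay fully above V and 7.63% fully below. The medians of the transcription factors were not even across libraries: relative to the V mean they were 0.22, 0.40 and 0.09 in r1r2V replicates 1, 4 and 5, against 0.09, 0.08 and 0.10 for the effectors. Without r1r2V replicate 4 the medians were 0.13 for the transcription factors and 0.12 for the effectors. On log2(FPKM + 1), with all 6 libraries kept, they were 0.17 and 0.12. The transcription factor median was also lower, at 0.21, without V replicate 4. In V the transcription factors had 0.05, 0.02 and -0.09, and 11 of the 20 were lowest in V replicate 4, against 2367 of all 14438 genes. The difference between the classes was not tested.

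A working division by speed of induction, made from general knowledge, put 22 tested genes in a fast class (Fos, Egr1, Arc, Npas4 and others) and 13 in a slow class (such as Fosl2, Crem, Homer1, Bdnf and Nptx2). The fast genes had a median log2 fold change of 0.12, with 15 positive, 6 fully above V and 1 fully below. The slow genes had a median of 0.24, with 10 positive, 5 fully above and 3 fully below. The shares over all genes were 52.5% positive, 6.87% fully above and 7.63% fully below. Relative to the V mean, the slow medians were 0.21, 0.34 and 0.29 in r1r2V replicates 1, 4 and 5, and the fast medians were 0.08, 0.07 and 0.02, so the slow median was the higher in each of the 3 libraries. Keeping only the 5 slow genes with the clearest later peak (Fosl2, Crem, Homer1, Bdnf and Nptx2) gave 0.45, with all 5 positive. That choice left out every slow gene with a negative value, Gadd45g (-0.30), Trib1 (-0.29) and Nr4a2 (-0.24). Like the division itself, it was made with earlier results of these data known, so the higher median is not independent support. Both classes held genes on either side, from Npas4 at -0.29 to Fosb and Egr4 at 0.91 among the fast genes and from Gadd45g at -0.30 to Nptx2 at 0.78 among the slow. Without r1r2V replicate 4 the fast median was 0.05. The difference between fast and slow genes was not tested, and the genes of a class are not replicates.

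**Figure D4:**
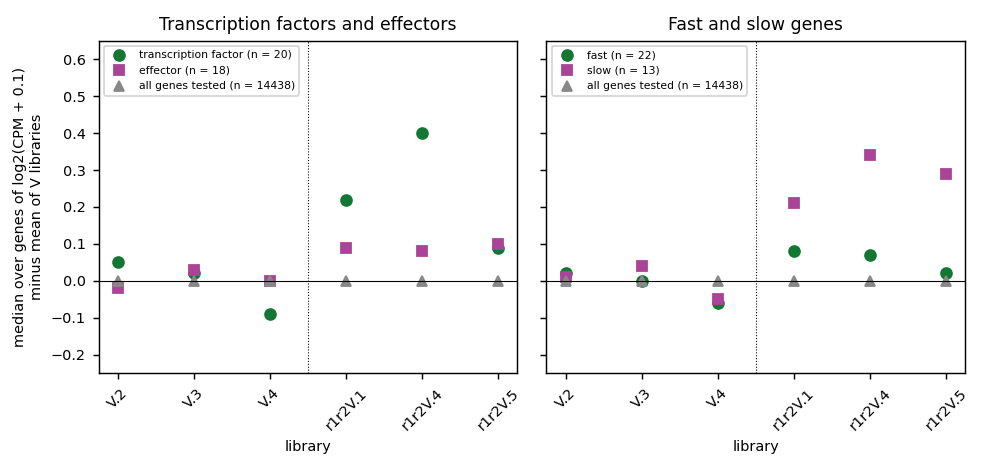
Median over genes of log2(CPM + 0.1) minus the mean of the V libraries (vertical axis) in each of the 6 libraries (horizontal axis), for transcription factors and effectors on the left and fast and slow genes on the right, with all genes tested in grey. The transcription factors are highest in r1r2V replicate 4, at 0.40, and the slow genes lie at 0.21, 0.34 and 0.29 in the r1r2V libraries, above the fast genes in each.

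Levels per length, in FPKM, ran over a wide range in the V libraries. Jund was highest at a mean of 67.0, followed by Gadd45g (28.1), Egr1 (25.8), Jun (16.8) and Fos (16.5). Lowest was Fosl1 at 0.0267, followed upward by Egr2 (0.480), Dusp5 (0.687), Atf3 (1.08), Egr3 (1.57) and Egr4 (1.77 FPKM). Fosb stood at 2.59 FPKM in V and 4.88 FPKM in r1r2V, Egr4 at 1.77 and 3.34, and Fos at 16.5 and 16.9. Of the other genes with large log2 fold changes, Klf10 was at 2.09, Gadd45b at 2.98 and Nptx2 at 8.04 FPKM in V.

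The upstream genes that read activity were listed separately, and none of their members passed under edgeR or any alternative run. Of all genes tested, 52.5% were positive and 6.87% lay fully above V and 7.63% fully below. At the unadjusted threshold 3.95% of all genes were higher and 3.63% lower. Of 32 kinases and calcium sensors, 20 were positive (62.5%), with a median of 0.03. In this list 2 lay fully above V (6.25%) and 2 fully below, with 2 higher and 1 lower at the unadjusted threshold. Of 17 CREB, SRF and MEF2 factors and coactivators, 13 were positive, with a median of 0.09, and 4 lay fully above V and 0 below, with 4 higher and 0 lower at the unadjusted threshold. Mef2c, which restrains synapse number in response to activity, had the smallest p there, with 35.7, 33.1 and 30.9 CPM in V against 43.3, 44.5 and 40.5 CPM in r1r2V (0.36, adjusted p = 0.142).

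A further list of 30 activity-induced genes outside the 39 had 22 positive (73.3%, against 52.5% of all genes) and a median of 0.16. The list was also chosen with earlier results of these data known, so it is not independent support. It includes the circadian clock genes Per1 (0.18, fully above V) and Per2 (0.22, overlapping). In it 8 lay fully above V (26.7%, against 6.87%) and 1 fully below (against 7.63%). At the unadjusted threshold 7 were higher (23.3%, against 3.95%) and 1 lower (against 3.63%), and 0 passed the adjusted threshold. Inhba, the activin subunit induced by synaptic activity, had 2.82, 2.59 and 2.35 CPM in V against 4.47, 5.00 and 4.43 CPM in r1r2V (0.84, adjusted p = 0.108). Arl4d lay below V, at 9.87, 14.4 and 14.7 against 8.65, 8.44 and 9.15 CPM (-0.57, adjusted p = 0.345).

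Some of the libraries that were highest or lowest for these genes also stood apart in other lists. The 10 genes of a heat shock and chaperone list were all positive (0.10 to 0.35, median 0.17, lowest adjusted p 0.128). Of the 10, 7 were highest in r1r2V replicate 4, the library in which 18 of the 38 immediate early genes (47.4%) and 25.5% of all genes were highest. Hspa1a and Hspa1b were not among them. They had 20.4 and 10.1 CPM in replicate 4, within the V range, and were highest in r1r2V replicate 1, at 25.8 and 17.5 CPM. In r1r2V replicate 4, markers of neighbouring hypothalamic neurons summed to 950 CPM, where the V libraries had 1530 to 1820 CPM and the other r1r2V libraries 1220 and 2040 CPM. Their median there was -0.98 relative to the V mean, and 4 of the 7 tested were lowest. V replicate 4, the library in which 14 of the 38 immediate early genes and all 4 EGR genes were lowest, had 5 of the 10 heat shock genes at their lowest. Of all 14438 genes tested, 2367 were lowest in V replicate 4. The oligodendrocyte markers of that library summed to 7340 CPM, against 5420 and 5260 CPM in the other V libraries and 5140 to 6600 CPM in r1r2V. The part of these lists in the result was not tested.

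Markers of meningeal fibroblasts summed to between 87.4 and 121 CPM in V and to 84.7, 95.5 and 206 CPM in r1r2V replicates 1, 4 and 5, with all 7 detected. All 7 had a positive log2 fold change, with a median of 0.44 and a lowest adjusted p of 0.257, and 1 of them, Slc6a13, lay fully above V. Their median relative to the V mean was -0.07, 0.28 and 1.12 in r1r2V replicates 1, 4 and 5, and their part in the result was not tested. The SCN marker list had medians of -0.10, 0.12 and -0.42 in the same libraries. In replicate 5 Vip, the peptide of the light-receiving core, had 11.4 CPM against 50.5 and 72.0 in the other r1r2V libraries. Avp went the other way, at 384 CPM in replicate 5 against 160 and 190 CPM. Of the 10 SCN markers, 6 were lowest and 1 was highest in replicate 5. The list summed to 544 CPM there, against 477 to 560 CPM in V. The medians of the immediate early genes were 0.14, 0.22 and 0.10 in r1r2V replicates 1, 4 and 5, and the part of SCN sampling in them was not tested. Without r1r2V replicate 5 the log2 fold change of Fosb was 1.02. Leaving out other single libraries gave values from 0.77 (without r1r2V replicate 4) to 1.09 (without V replicate 2). GABAergic markers summed to 1170 to 1320 CPM in V and 1090 to 1350 CPM in r1r2V. Of the 3 in that list, Gad1 and Gad2 overlapped between the groups. Slc32a1 lay fully below V, at 150, 141 and 141 against 129, 116 and 117 CPM (-0.25, adjusted p = 0.314 with edgeR). Markers of endothelial cells and microglia summed to 109 to 114 and 164 to 175 CPM in V against 103 to 128 and 168 to 194 CPM in r1r2V.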

How the data were processed

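Per the file headers, each of the 6 deposited tables gives the authors' expected count and FPKM per gene, and 9.9% of the expected counts were not whole. The submitters' processing notes name RSEM 1.2.12, Bowtie2 2.2.5, DESeq2, HISAT2 2.0.4, GATK, StringTie 1.0.4 and Cufflinks 2.2.1, and build mm10. What each did, and strand handling: not given in the sources used here. A gene that a table does not list was taken as 0.

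Expected counts were rounded, filtered (filterByExpr, minimum count 10), scaled with TMM factors and compared with the quasi-likelihood test of edgeR 4.0.16 (R 4.3.3), with Benjamini-Hochberg adjustment over 14438 genes. Standard errors and 95% intervals come from that fit. CPM uses the scaled library sizes. Alternatives were DESeq2 1.42.0, limma 3.58.1 (voom, and log2 of FPKM plus 1 or 0.1), other scalings and filters, and leaving out each library. Libraries of a group differed by more than sampling noise. The chi-square per degree of freedom was 3.85 to 5.58 between V libraries and 11.7 to 13.5 between r1r2V libraries.

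The genes, classes and lists were chosen with earlier results of these data known. Named were all 39 genes, Nr1d1 and Nr1d2, and from the other lists the genes with the smallest p or, for markers, defining genes. The authors' FPKM served to compare levels between genes. Promoters are RefSeq's, and motifs were searched on both strands.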

Additional observations from a re-analysis of the deposited data

How the results depend on the processing

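No immediate early gene passed as lower in any alternative. As higher, 4 passed with DESeq2, 1 with no filter on low counts, 1 with log2(FPKM + 1), and 0 to 1 when single libraries were left out (1 without r1r2V replicate 4 and 1 without r1r2V replicate 5). Over all genes, DESeq2 called 69 higher and 40 lower, and leaving out single libraries gave 19 to 52 higher and 7 to 24 lower. The median over the immediate early genes ran from 0.12 (without r1r2V replicate 4) to 0.20 when single libraries were left out, and was 0.21 with no filter, where all 39 were tested. That of the transcription factors was 0.17 on log2(FPKM + 1) and 0.13 to 0.39 without single libraries. The effectors ran from 0.11 to 0.15, the fast genes from 0.05 to 0.15 and the slow genes from 0.20 to 0.31, and the narrower slow class gave 0.45. Single genes that crossed 0 without 1 library were Fos (-0.16 to 0.14, and -0.03 without V replicate 3), Jun (0 to 0.06), Atf3 (-0.10 to 0.59), Klf2 (-0.19 to 0.04) and Btg1 (-0.05 to 0.08). The cause was not tested. In alternatives added after the data were seen, immediate early genes higher at the unadjusted threshold numbered 8 (without V replicate 4) to 14. The share of all genes at that threshold was not computed for those fits. With all 6 libraries it was 3.95%. In the same alternatives, genes fully above V numbered 14 to 16 (against 9.61% to 16.2% of all genes, fewer libraries being compared). Genes fully below V numbered 4 to 8 (against 10.8% to 16.5% of all genes, with 8 and 16.5% without r1r2V replicate 1). Of 531 values of single genes under an alternative, 517 kept direction and side of the threshold. No paired analysis was possible because replicate number 4 is the only number present in both groups. Egr2, Dusp5, Atf3 and Fosl1 are limited by depth.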
